A study of Homo sapiens with 4 samples.

Results

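Antisense genes are loci annotated on the strand opposite a named gene, and 324 of them were expressed in the Hs578T libraries described here. A gene belonged to this set when its symbol ended in -AS and a number and its deposited TPM (a level scaled to transcript length and library) was 1 or more in at least 2 of the 4 libraries. The table listed 60664 genes, of which 1538 carried such a symbol and 602 of those had no count in any library. Each antisense gene was read beside the gene named before -AS, here called its sense partner. Hs578T is an established human cell line from a breast cancer, with mesenchymal features and without hormone receptors or HER2 amplification. The groups were 2 libraries of the empty group and 2 of cells with TFCP2L1 overexpression, TFCP2L1 being a DNA-binding factor of the grainyhead/CP2 family. RNA of all 4 was taken with Trizol, and the labels do not say whether the vector was stable or transient, whether a clone was used, or whether each library is from a culture of its own. The p-values therefore measure only the spread between these libraries. The question is which of these transcripts TFCP2L1-overexpressing cells hold at another level, and every fold change is overexpression over empty.

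Antisense transcripts are mostly long noncoding RNAs that are spliced and polyadenylated like messenger RNAs but are usually scarcer and often nuclear. Some start close to the promoter of a coding gene and run away from it, some run through its exons or introns, and some meet it tail to tail. Known members of the class act at their own locus, as CDKN2B-AS1 (ANRIL) is known to do on the INK4 genes, while others work elsewhere in the cell, and for most no role is established.

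The libraries held 18960674 to 26355502 estimated counts. TFCP2L1 itself stood at 0.08 and 0.15 TPM in the empty libraries and at 43.2 and 40.9 TPM in the overexpressing libraries, as their labels say. The mesenchymal markers VIM, CDH2, FN1, SPARC, CD44, EGFR and AXL were present in all 4 libraries, with EGFR lowest at 12.8 TPM. Of the luminal, epithelial, leukocyte and endothelial markers, PGR was at 0 throughout and ESR1, FOXA1, EPCAM, KRT19, PTPRC, CD3E and CDH5 stayed under 1 TPM, while CDH1 reached 1.03 TPM in 1 overexpressing library. GATA3 lay between 5.05 and 6.95 TPM, and PECAM1 was 12.3 and 8.78 TPM in the empty and 3.70 and 3.13 TPM in the overexpressing libraries; the part of PECAM1-expressing cells in the results was not tested.

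As a group the antisense transcripts were scarce and took the same part of the RNA in every library. Their TPM summed to 1958 and 1918 in the empty libraries and to 2002 and 1897 in the overexpressing libraries, and they took 0.190% to 0.206% of all estimated counts. The 2 groups overlapped in both measures. The mean TPM of a single gene ran from 0.69 to 127, with a median of 2.80, and 49 genes averaged 10 or more. Among genes with enough counts to test, the median antisense gene had a mean of 2.55 CPM (counts scaled to library size and not to length), against 36.9 for the partners and 17.9 for all tested genes. The genes nearest the threshold were CPNE8-AS1, KLC4-AS1 and TFAP2A-AS2, whose second-highest TPM was 1.0, and just outside it ENTPD3-AS1, SLC25A5-AS1 and TMSB15B-AS1 at 0.99.

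TPM of 1 was reached in at least 1 library of each group by 291 genes, in empty libraries only by 18 and in overexpressing libraries only by 15. Of the 291, 224 stood at TPM 1 or more in all 4 libraries. Only the 291 are read as tested, since the other 33 had to differ to enter the set in that way. In GENCODE 29 (GRCh38), 246 of the 324 were of the type antisense, 40 were processed transcripts and 30 were lincRNAs. A partner was found for 317, always a protein-coding gene, and 314 of these partners were distinct. The 7 without a partner were 6 antisense genes named for HOX clusters and ZNF295-AS1. Exons of the pair overlapped for 230 genes, 54 overlapped their partner in introns only, 30 were divergent and 3 convergent. In 112 pairs on opposite strands, 26 of them divergent, the annotated starts lay within 1000 bases of each other. No source used here says how strand was used in counting, so reads of an antisense gene and of a partner that overlaps it cannot be told apart.

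The antisense genes that changed split evenly between rises and falls. Of the 291, 271 passed the filter on low counts; 37 rose, 39 fell and 195 did not pass the test (edgeR quasi-likelihood test, Benjamini-Hochberg adjusted p under 0.05 over all 16544 tested genes). That is 28.0% called against a background of 47.5% over all genes, of which 23.5% were higher and 23.9% lower, and the antisense genes were tested at lower counts. DESeq2 called 20 higher and 18 lower. With a log2 fold change of at least 1 added, 11 were higher and 13 lower, against 4.76% and 9.13% of all genes. The median log2 fold change was 0.046 for the tested antisense genes and -0.0020 for all genes. The CPM of both overexpressing libraries lay above both empty ones for 96 of the 291 and below for 75, while groups of 73.7% of all tested genes did not overlap. Of the 76 calls, 30 held in the same direction in each fit without 1 library, and those 30 were also called by DESeq2. Where a call below ended without a library, DESeq2 also ended it for HAS2-AS1, IGFL2-AS1, RBM12B-AS1, ZEB1-AS1, ZFHX2-AS1, VIM-AS1, POT1-AS1, MCPH1-AS1 and the partner SLC8A1. Their DESeq2 adjusted p lay between 0.069 and 0.18. A lower level in bulk RNA may mean fewer cells that express the gene or less RNA per cell, and these cannot be told apart.

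**Figure D1:**
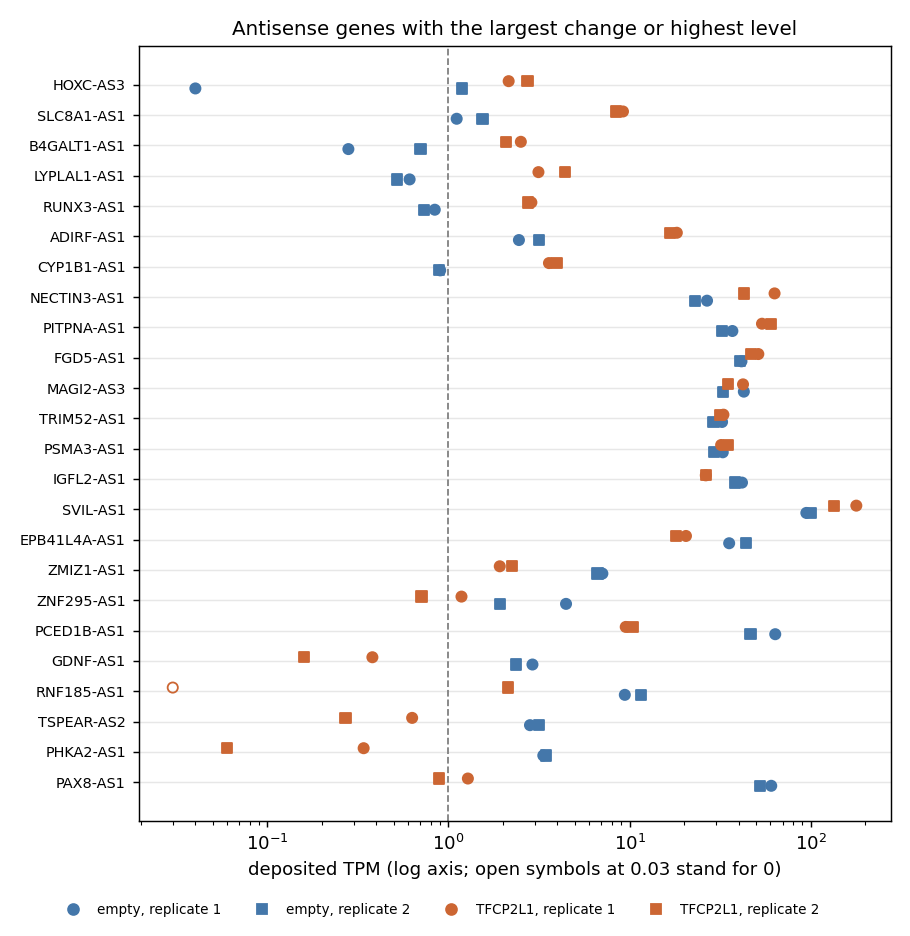
Deposited TPM on a log axis of the antisense genes with the largest fold changes or the highest mean levels, 1 symbol per library, empty libraries in blue and overexpressing libraries in orange, with a dashed line at the TPM of 1 that defines the set. PAX8-AS1 sits at 60.6 and 52.5 TPM in the empty libraries and at 1.28 and 0.89 TPM in the overexpressing ones, while SVIL-AS1, the most abundant, sits at 94.8 TPM or more in all 4.

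PAX8-AS1 lost nearly all of its RNA with TFCP2L1 and showed the largest change of the set. Its gene lies on the plus strand of chromosome 2 at 113211522 to 113276581 (GRCh38), overlapping and antisense to PAX8, a paired-box transcription factor of thyroid and kidney development, and 685 exon bases of the pair overlap. It stood at 60.6 and 52.5 TPM in the empty libraries and at 1.28 and 0.89 TPM in the overexpressing libraries. The groups did not overlap. From 2061 and 1484 counts to 53 and 41, its CPM went from 83.5 ± 7.10 to 1.89 ± 0.47 (mean ± SD, n = 2) and fell by 5.47 on the log2 scale (SE 0.14, edgeR adjusted p = 9.64e-13). PAX8 stood far lower and changed less, at 7.39 and 7.44 TPM against 4.08 and 5.04 TPM. It fell by 0.77 on the log2 scale (edgeR adjusted p = 0.0024), a call that ended without empty replicate 1 (adjusted p = 0.065). RefSeq gives the antisense gene 2 promoter windows, both inside the GENCODE span. The second is shown because this locus changed most and the window is a repeat. It is 300 bases of the plus strand of chromosome 2 (GRCh38.p14, chr2:113236019-113236318), 250 before and 50 after an annotated start. Set against itself, the window matched best, among the shifts tried, at a shift of 89 bases, where 73.9% of bases match. Shorter repeat units lie within that shift, so it is not the length of a single unit. Of the window, 76.7% is G or C. Both windows were searched on both strands for the paired CP2-family motif, written as CCAGNNNNNNCCAG, CCAGNNNNNNCCGG, CCGGNNNNNNCCAG or CCGGNNNNNNCCGG, and no such letters are in either.
PAX8-AS1 second promoter window: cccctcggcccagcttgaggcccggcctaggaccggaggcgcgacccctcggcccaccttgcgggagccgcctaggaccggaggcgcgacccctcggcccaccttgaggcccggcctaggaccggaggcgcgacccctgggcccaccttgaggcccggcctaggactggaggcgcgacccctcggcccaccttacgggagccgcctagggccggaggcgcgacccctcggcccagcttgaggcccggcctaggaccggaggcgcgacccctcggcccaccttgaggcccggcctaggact

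PCED1B-AS1 also fell, while its partner rose. The antisense gene, on the minus strand of chromosome 12 at 47205898 to 47216456, was at 63.8 and 46.6 TPM in the empty libraries and at 9.53 and 10.4 TPM in the overexpressing libraries. The groups were well apart, and its counts fell by 2.38 on the log2 scale (SE 0.18, edgeR adjusted p = 8.75e-08). PCED1B was at 7.89 and 7.87 TPM in the empty and 17.0 and 13.7 TPM in the overexpressing libraries, without overlap, and its counts rose by 0.52 on the log2 scale (SE 0.14, edgeR adjusted p = 0.0064). The pair shares 235 exon bases.

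ZMIZ1-AS1 and EPB41L4A-AS1 fell as well. ZMIZ1-AS1 starts 1140 bases from ZMIZ1, a PIAS-like transcriptional coactivator, and runs away from it. It was at 7.08 and 6.65 TPM in the empty libraries and at 1.92 and 2.25 TPM in the overexpressing libraries, and its counts fell by 1.70 on the log2 scale (SE 0.18, edgeR adjusted p = 3.65e-06). EPB41L4A-AS1 was at 35.5 and 43.9 TPM in the empty and 20.5 and 18.1 TPM in the overexpressing libraries, and it fell by 0.82 on the log2 scale (edgeR adjusted p = 3.53e-06). Its partner, a cytoskeletal FERM-domain gene, never exceeded 0.07 TPM. In both antisense genes the groups stood apart.

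Further falls included antisense genes of an enzyme, a signalling and an angiogenesis gene. B3GALT1-AS1 was at 16.1 and 19.4 TPM in the empty libraries and 8.21 and 8.88 TPM with TFCP2L1 (log2 fold change -1.03, edgeR adjusted p = 5.49e-05). ARHGAP29-AS1, which overlaps a GTPase-activating protein gene in introns and runs beyond it, was at 6.48 and 7.09 TPM and then 1.40 and 2.34 TPM (log2 fold change -1.69, edgeR adjusted p = 0.0033). VASH1-AS1, beside the gene of the angiogenesis inhibitor vasohibin, was at 6.55 and 6.01 TPM and then 3.80 and 2.13 TPM (log2 fold change -1.17, edgeR adjusted p = 0.011). In none of the 3 did the groups overlap. RNF185-AS1, a locus of 353 bases, rested on few reads, with 18 counts in each empty library and 0 and 5 in the overexpressing ones (log2 fold change -3.04, SE 0.74, edgeR adjusted p = 0.0037). ZNF295-AS1 was at 4.46 and 1.93 TPM against 1.18 and 0.71 TPM (log2 fold change -1.88, edgeR adjusted p = 0.0070). Its call ended without empty replicate 1 (adjusted p = 0.30) and without overexpression replicate 2 (0.063).

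SLC8A1-AS1 and ADIRF-AS1 were among the larger rises. SLC8A1-AS1 overlaps SLC8A1, which encodes a sodium/calcium exchanger, and stood at 1.11 and 1.54 TPM in the empty libraries and at 9.20 and 8.43 TPM in the overexpressing libraries. Its CPM went from 0.63 ± 0.16 to 3.88 ± 0.09 (mean ± SD, n = 2), a rise of 2.64 on the log2 scale (SE 0.30, edgeR adjusted p = 5.62e-06). SLC8A1 was at 2.35 and 2.36 TPM in the empty and 2.98 and 1.97 TPM in the overexpressing libraries, where the groups overlapped. Its counts were higher by 0.39 on the log2 scale (edgeR adjusted p = 0.024), and the call ended without empty replicate 1 (adjusted p = 0.13), without empty replicate 2 (0.054) and without overexpression replicate 2 (0.061).

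ADIRF-AS1, on the minus strand of chromosome 10 at 86965345 to 86971311, was at 2.45 and 3.16 TPM in the empty libraries and at 18.3 and 16.7 TPM in the overexpressing libraries. The groups lay far apart, and its CPM went from 5.70 ± 0.53 to 22.9 ± 0.0018 (mean ± SD, n = 2), a rise of 2.01 on the log2 scale (SE 0.12, edgeR adjusted p = 9.63e-09). ADIRF, an adipogenesis regulatory factor, never exceeded 1.39 TPM and was not tested. The promoter window of this gene, 300 bases of the minus strand at chr10:86971191-86971490 (GRCh38.p14), is shown because the gene rose and it holds 1 match to the CP2-family motif, in capitals, beginning at base 10 of the window. A match is a string of letters and no evidence of binding.
ADIRF-AS1 promoter window: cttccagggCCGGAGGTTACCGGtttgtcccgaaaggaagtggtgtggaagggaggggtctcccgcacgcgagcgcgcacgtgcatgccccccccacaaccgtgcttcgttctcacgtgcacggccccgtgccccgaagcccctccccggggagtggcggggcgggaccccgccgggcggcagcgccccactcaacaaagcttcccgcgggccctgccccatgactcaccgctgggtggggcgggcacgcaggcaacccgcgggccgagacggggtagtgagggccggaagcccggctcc

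NECTIN3-AS1 and RRS1-AS1 rose beside partners that did not. NECTIN3-AS1, which starts 1482 bases inside the nectin adhesion gene NECTIN3 and runs out past its start, was at 26.8 and 23.0 TPM in the empty libraries and at 63.3 and 43.1 TPM in the overexpressing libraries (log2 fold change 1.01, SE 0.09, edgeR adjusted p = 1.05e-06). RRS1-AS1 starts 51 bases from RRS1, a ribosome assembly factor, and runs away from it. It was at 2.10 and 1.80 TPM and then 6.78 and 5.34 TPM (log2 fold change 1.51, SE 0.20, edgeR adjusted p = 2.61e-05). Neither gene's groups overlapped. TMPO-AS1, beside the lamina-associated polypeptide gene TMPO, was at 2.54 and 2.53 TPM and then 5.53 and 4.43 TPM (log2 fold change 1.04, edgeR adjusted p = 6.79e-05).

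The antisense genes named for HOX clusters, which hold the homeobox genes of body patterning, numbered 6, and the 3 that could be tested were called higher, where 23.5% of all genes were. HOXC-AS3 alone of the 3 kept its call in each fit without 1 library. HOXC-AS3 was at 0.04 and 1.19 TPM in the empty libraries and at 2.15 and 2.73 TPM in the overexpressing libraries, from 2 and 3 counts to 17 and 22 (log2 fold change 2.66, SE 0.62, edgeR adjusted p = 0.0027). HOXA-AS2 was at 1.59 and 2.96 TPM against 2.94 and 5.48 TPM, groups that overlap (log2 fold change 1.01, edgeR adjusted p = 0.016). Its call ended without empty replicate 1 (adjusted p = 0.14) and without overexpression replicate 2 (0.12), and under DESeq2 (0.094). HOXC-AS2 was at 1.90 and 1.63 TPM against 2.38 and 2.79 TPM (log2 fold change 0.72, edgeR adjusted p = 0.033), and lost its call without empty replicate 2 (adjusted p = 0.23) or overexpression replicate 2 (0.17), and under DESeq2 (0.15). HOXB-AS1, HOXB-AS3 and HOXC-AS1 had too few counts to test. HOXB-AS1 was at 2.26 and 1.17 TPM in the empty and 0.26 and 0.38 TPM in the overexpressing libraries. The authors' deposited log2 fold changes were -1.36 for HOXB-AS1, -1.14 for HOXB-AS3 and 0.61 for HOXC-AS1. No rise of the HOX antisense genes as a set is read from the 3 that were called.

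The 33 genes that reached TPM 1 in 1 group only are given by their values, with no test. Intervals beside their count ratios leave out the spread between libraries and are no test of a difference. These genes had to differ to enter the set in that way. Those of the empty group included PHKA2-AS1, beside the liver phosphorylase kinase subunit gene PHKA2. It stood at 3.34 and 3.47 TPM in the empty libraries and 0.34 and 0.06 TPM in the overexpressing libraries, which together held 145 and 7 counts. Scaled to library size that is 24.6-fold lower with TFCP2L1 (95% interval 11.6 to 62.2, counting error only). TSPEAR-AS2 went from 2.82 and 3.15 TPM to 0.63 and 0.27 TPM, a 9.54-fold difference with an interval of 6.04 to 15.8. For GDNF-AS1, antisense to the neurotrophic factor gene GDNF, the TPM of 2.91 and 2.35 stood against 0.38 and 0.16, 5.85-fold lower (3.39 to 10.7). GDNF moved the same way, from 1.77 and 1.71 TPM to 0.22 and 0.09 TPM, and fell by 3.41 on the log2 scale (edgeR adjusted p = 2.36e-06). TSPEAR fell by 3.73 from at most 0.38 TPM (edgeR adjusted p = 0.0005). FUT8-AS1 was at 2.51 and 1.45 TPM against 0.24 and 0.44 TPM, while FUT8, the core fucosyltransferase, was at 64.6 and 69.1 TPM against 74.5 and 68.6 TPM and did not pass the test (edgeR adjusted p = 0.92). TGFB2-AS1 had 13 counts in the empty libraries and 0 in the overexpressing ones, at least 5.14-fold lower with a floor of 3 counts over the group.
PHKA2-AS1 promoter window, plus strand, chrX:18890046-18890345 (GRCh38.p14), without a match to the CP2-family motif: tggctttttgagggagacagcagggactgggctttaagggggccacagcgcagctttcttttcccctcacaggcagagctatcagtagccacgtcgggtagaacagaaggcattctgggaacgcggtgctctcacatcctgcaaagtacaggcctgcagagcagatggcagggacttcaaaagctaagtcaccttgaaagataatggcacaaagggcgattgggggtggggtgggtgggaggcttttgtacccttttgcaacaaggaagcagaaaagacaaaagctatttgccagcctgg
TSPEAR-AS2 promoter window, plus strand, chr21:44516965-44517264 (GRCh38.p14), without a match: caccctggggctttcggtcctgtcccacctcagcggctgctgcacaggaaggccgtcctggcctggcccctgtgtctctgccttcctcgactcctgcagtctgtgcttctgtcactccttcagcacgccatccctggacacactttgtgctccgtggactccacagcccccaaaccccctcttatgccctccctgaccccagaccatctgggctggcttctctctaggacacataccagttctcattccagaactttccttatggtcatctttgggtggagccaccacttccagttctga

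In the other direction, RUNX3-AS1, in an intron of the runt-domain transcription factor gene RUNX3, stood at 0.84 and 0.73 TPM in the empty libraries and at 2.87 and 2.76 TPM in the overexpressing libraries. Its 44 and 227 counts make a scaled ratio of 4.35 (95% interval 3.14 to 6.16, counting error only), while RUNX3 stayed at or below 0.26 TPM. B4GALT1-AS1, which overlaps the galactosyltransferase gene B4GALT1, was at 0.28 and 0.70 TPM and then 2.51 and 2.08 TPM, a ratio of 6.19 (3.07 to 14.1). Its partner, at 57.8 to 67.1 TPM, did not pass the test (edgeR adjusted p = 0.20). GATA6-AS1 was at 0.25 and 0.35 TPM and then 1.86 and 2.06 TPM, a ratio of 5.76 (2.43 to 16.6). GATA6, a zinc-finger factor of endoderm and heart, went with it from 3.78 and 3.96 TPM to 12.3 and 11.8 TPM and rose by 1.69 on the log2 scale (edgeR adjusted p = 9.80e-09). CYP1B1-AS1 was at 0.90 and 0.89 TPM and then 3.59 and 3.95 TPM, beside a CYP1B1, an oxidising enzyme of steroids and xenobiotics, at or below 0.46 TPM throughout. LYPLAL1-AS1, tail to tail with LYPLAL1, was at 0.61 and 0.52 TPM and then 3.14 and 4.38 TPM. Of the 2 RefSeq windows of B4GALT1-AS1 the first is shown because it holds 3 matches to the CP2-family motif, beginning at bases 184, 224 and 239. The other holds none.
B4GALT1-AS1 first promoter window, plus strand, chr9:33166698-33166997 (GRCh38.p14), matches in capitals: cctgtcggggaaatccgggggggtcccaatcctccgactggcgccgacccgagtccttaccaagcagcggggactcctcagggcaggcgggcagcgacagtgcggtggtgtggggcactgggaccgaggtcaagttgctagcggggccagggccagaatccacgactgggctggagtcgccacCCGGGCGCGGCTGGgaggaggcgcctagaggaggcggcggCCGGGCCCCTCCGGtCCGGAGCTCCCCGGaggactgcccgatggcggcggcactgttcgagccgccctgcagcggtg

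Over all RefSeq promoter windows of 300 bases, 12.1% held at least 1 match to that motif (4259 of 35116). Windows were found for 238 of the antisense genes, and 17.7% of these held one (52 of 293), as did 15.2% of the windows of their partners (65 of 429). The next shares count every antisense gene called by the fit, also those that reached TPM 1 in 1 group only, which had to differ. A match was held by 15.2% of the windows of genes called higher (7 of 46), and by 11.6% of those of genes called lower (5 of 43). No difference between higher and lower genes is read from them. All of these are shares of letters found in a window and say nothing of binding. The windows printed above are no sample of the set, since those of ADIRF-AS1 and B4GALT1-AS1 were picked for their matches.

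The sense partners, more abundant than the antisense genes, changed in both directions. Of 285 tested partners 85 rose, 68 fell and 132 did not pass the test, so that 53.7% were called against 47.5% of all genes. With a log2 fold change of at least 1, 12 of the 285 rose and 16 fell, against 4.76% and 9.13% of all genes. Tested or not, 51 of the 314 partners stayed under TPM 1 in all libraries, and 4 of the 314 had no count at all, although their antisense genes were expressed.

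Where both genes of a pair were called, 26 pairs moved together and 16 apart. With overlapping exons 22 moved together and 10 apart, and without overlapping exons 4 moved together and 6 apart. Over all tested genes 3894 were called higher and 3962 lower, so called genes with no link would move together about as often as apart. Whether these splits depart from that was not tested. Both genes were tested in 240 pairs whose antisense gene was present in both groups. In 42 of them both were called, 12 with both higher and 14 with both lower. In 20 only the antisense gene was called, in 85 only the partner and in 93 neither. Over all 266 pairs with both genes tested, the log2 fold changes were correlated with coefficients of 0.39 (Pearson) and 0.30 (Spearman), and over the 240 with 0.26 (Pearson) and 0.22 (Spearman). These describe genes within the same 4 libraries, which are not replicates. With the antisense gene present in both groups, the Pearson coefficient was 0.30 over 173 pairs with overlapping exons, where reads can be shared, 0.25 over 39 that overlap in introns and -0.06 over 27 divergent pairs. Adding antisense genes that reached TPM 1 in 1 group only, which had to differ, it was 0.44 over 195, 0.26 over 40 and -0.06 over 29 pairs. Among the divergent pairs 3 had both genes called, BOLA3-AS1, RRS1-AS1 and ZMIZ1-AS1, and all 3 went opposite ways.

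**Figure D2:**
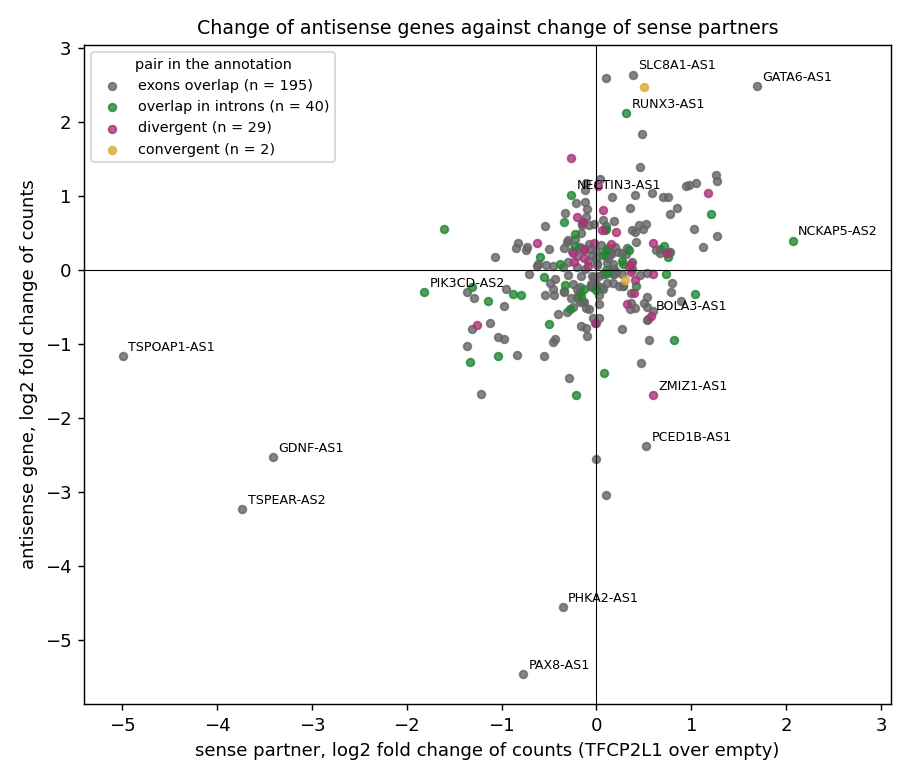
Log2 fold change of counts of each antisense gene (vertical axis) against that of its sense partner (horizontal axis) for 266 pairs with both genes tested, coloured by how the 2 genes lie in the annotation. GDNF-AS1 and GATA6-AS1 lie with their partners in the lower left and upper right, and PCED1B-AS1, ZMIZ1-AS1 and BOLA3-AS1 lie in the lower right with partners that rose.

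Pairs that rose together included the cell cycle inhibitor CDKN2B, which encodes p15, and a linker histone. Of the 26 pairs that rose or fell together, 22 have overlapping exons, where reads of the 2 genes may be shared. CDKN2B-AS1 was at 3.53 and 3.59 TPM in the empty libraries and at 6.66 and 5.67 TPM in the overexpressing libraries (log2 fold change 0.75, edgeR adjusted p = 0.0016). CDKN2B was at 3.77 and 3.68 TPM and then 9.21 and 8.36 TPM (log2 fold change 1.21, edgeR adjusted p = 2.57e-06). Both members had groups that stood apart, and their exons do not overlap. H1-10-AS1 was at 1.69 and 1.80 TPM and then 3.01 and 3.19 TPM (log2 fold change 1.21, edgeR adjusted p = 0.0040). H1-10 itself was at 62.3 and 49.3 TPM and then 139 and 129 TPM (log2 fold change 1.27, edgeR adjusted p = 2.83e-07). TMPO rose by 0.59 with its antisense gene (edgeR adjusted p = 4.40e-06). NR2F1, a COUP nuclear receptor, rose by 1.03 (edgeR adjusted p = 1.52e-06) from 12.0 TPM in both empty libraries to 17.1 and 19.95 TPM. NR2F1-AS1 was at 6.90 and 7.37 TPM and then 8.02 and 11.7 TPM (log2 fold change 0.56, edgeR adjusted p = 0.0095), a call that ended without empty replicate 1 (adjusted p = 0.066) and without overexpression replicate 2 (0.12).

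MALT1 and HAS2 fell together with their antisense genes. MALT1, a paracaspase of NF-kB signalling, was at 35.5 and 28.9 TPM in the empty libraries and at 12.9 and 13.2 TPM in the overexpressing libraries (log2 fold change -1.22, edgeR adjusted p = 9.71e-06). Without either overexpressing library its call ended, with adjusted p of 0.14 and 0.12. MALT1-AS1 was at 2.74 and 2.11 TPM and then 1.11 and 0.42 TPM (log2 fold change -1.69, edgeR adjusted p = 0.0054). HAS2, which makes hyaluronan of the extracellular matrix, was at 14.4 and 13.8 TPM and then 6.04 and 5.20 TPM (log2 fold change -1.32, edgeR adjusted p = 3.20e-08). HAS2-AS1 was at 4.41 and 5.47 TPM and then 3.90 and 3.11 TPM (log2 fold change -0.80, edgeR adjusted p = 0.0093). In all 4 of these genes the groups stood apart. The HAS2-AS1 call ended without empty replicate 2 (adjusted p = 0.060) and without overexpression replicate 1 (0.055). RGMB, a BMP co-receptor, fell by 0.97 (edgeR adjusted p = 3.08e-08) and RGMB-AS1 by 0.93 (edgeR adjusted p = 0.0056).

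In the pairs that moved apart, the antisense gene was the one that rose in 9 and the one that fell in 7. BOLA3-AS1 starts 15 bases from BOLA3, a mitochondrial iron-sulfur cluster factor, on the other strand. It was at 6.62 and 6.60 TPM in the empty libraries and at 4.53 and 3.61 TPM in the overexpressing libraries (log2 fold change -0.62, edgeR adjusted p = 0.0039). BOLA3 was at 100.2 and 98.4 TPM and then 133 and 150 TPM (log2 fold change 0.57, edgeR adjusted p = 0.0002). The groups of both genes stood apart. ZMIZ1 likewise rose, from 28.6 and 25.9 TPM to 40.7 and 39.9 TPM (log2 fold change 0.60, edgeR adjusted p = 1.40e-06), while its antisense gene fell. PITPNA-AS1 was at 37.0 and 32.3 TPM and then 53.9 and 60.3 TPM (log2 fold change 0.76, edgeR adjusted p = 0.0005), and PITPNA, a phosphatidylinositol transfer protein, fell by 0.34 (edgeR adjusted p = 0.0004). RRS1 fell by 0.27 (edgeR adjusted p = 0.0023) beside the rise of RRS1-AS1.

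Smaller or less stable contrasts stood at 4 other loci. NECTIN3 was at 13.8 and 15.9 TPM in the empty libraries and at 13.2 and 10.8 TPM in the overexpressing libraries (log2 fold change -0.26, edgeR adjusted p = 0.018). Its call ended without empty replicate 1 (adjusted p = 0.065), empty replicate 2 (0.084) or overexpression replicate 2 (0.12). ZEB1, a transcription factor of epithelial-mesenchymal transition, was at 15.7 and 15.8 TPM and then 10.8 and 9.46 TPM (log2 fold change -0.54, edgeR adjusted p = 5.62e-05). ZEB1-AS1 was higher in counts by 0.60 (edgeR adjusted p = 0.013), a call that ended without empty replicate 1 (adjusted p = 0.051), while its TPM overlapped at 6.60 and 5.08 against 5.25 and 4.80. RBM12B-AS1 was at 4.14 and 5.82 TPM and then 1.80 and 2.21 TPM (log2 fold change -1.26, edgeR adjusted p = 0.017; 0.17 without empty replicate 2 and 0.072 without overexpression replicate 1). Its partner RBM12B, an RNA-binding protein gene, rose by 0.47 (edgeR adjusted p = 0.0009). ZFHX2-AS1 differed by 0.56 (edgeR adjusted p = 0.020; 0.18 without empty replicate 2 and 0.061 without overexpression replicate 1), and ZFHX2, a homeobox zinc-finger gene, fell by 1.60 from 0.42 and 0.99 TPM to 0.13 and 0.25 TPM (edgeR adjusted p = 0.0007).

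Some partners changed by 1 or more on the log2 scale beside antisense genes that did not pass the test. PRDX6, a peroxiredoxin with phospholipase activity, was at 137 and 142 TPM in the empty libraries and at 314 and 308 TPM in the overexpressing libraries (log2 fold change 1.17, edgeR adjusted p = 8.19e-10). PRDX6-AS1 was at 1.54 and 1.01 TPM against 1.24 and 4.70 TPM, overlapping (edgeR adjusted p = 0.068). PIK3CD, the delta catalytic subunit of PI3-kinase, was at 22.7 and 22.3 TPM and then 5.60 and 6.16 TPM (log2 fold change -1.82, edgeR adjusted p = 1.28e-09). The antisense gene PIK3CD-AS2 in its intron was at 1.00 and 1.23 TPM against 1.23 and 0.57 TPM (log2 fold change -0.30, SE 0.53). OSMR, the oncostatin M receptor, was at 59.3 and 60.1 TPM and then 27.4 and 22.8 TPM (log2 fold change -1.26, edgeR adjusted p = 5.68e-09), and OSMR-AS1, which starts 29 bases away, was at 1.81 and 1.32 TPM against 1.42 and 0.42 TPM. PDCD4, an inhibitor of translation initiation, rose by 1.04 (edgeR adjusted p = 1.79e-07), and PDCD4-AS1 was at 2.17 and 2.68 TPM against 1.80 and 1.96 TPM. These antisense genes had standard errors of 0.40 to 0.57 on the log2 scale. PRDX6-AS1 was called higher without overexpression replicate 1 (log2 fold change 1.45, edgeR adjusted p = 0.015). NCKAP5 rose by 2.07 (edgeR adjusted p = 2.06e-06), LURAP1L fell by 1.31 (edgeR adjusted p = 5.58e-07) and ZBED3 rose by 1.12 (edgeR adjusted p = 6.84e-06), and none of their antisense genes passed the test with all 4 libraries. ZBED3-AS1 was called higher without overexpression replicate 2 (log2 fold change 0.54, edgeR adjusted p = 0.043).

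The antisense gene was the more abundant member, per length, in all 4 libraries of 80 pairs and the less abundant in all 4 of 209. The median antisense share, its TPM over the TPM of both genes, was 20.1% in the empty group and 18.7% in the overexpressing group. PAX8-AS1 and PCED1B-AS1 went from the larger to the smaller part of their pair. The PAX8-AS1 share was 89.1% and 87.6% in the empty libraries, against 23.9% and 15.01% in the overexpressing libraries, and that of PCED1B-AS1 was 89.0% and 85.6% and then 36.0% and 43.1%. In the other direction went SLC8A1-AS1, from 32.1% and 39.5% to 75.5% and 81.1%, and LIMD1-AS1 and MAPKAPK5-AS1, whose own counts did not pass the test. These 5 pairs were picked out by their TPM, and no test is attached to them.

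**Figure D3:**
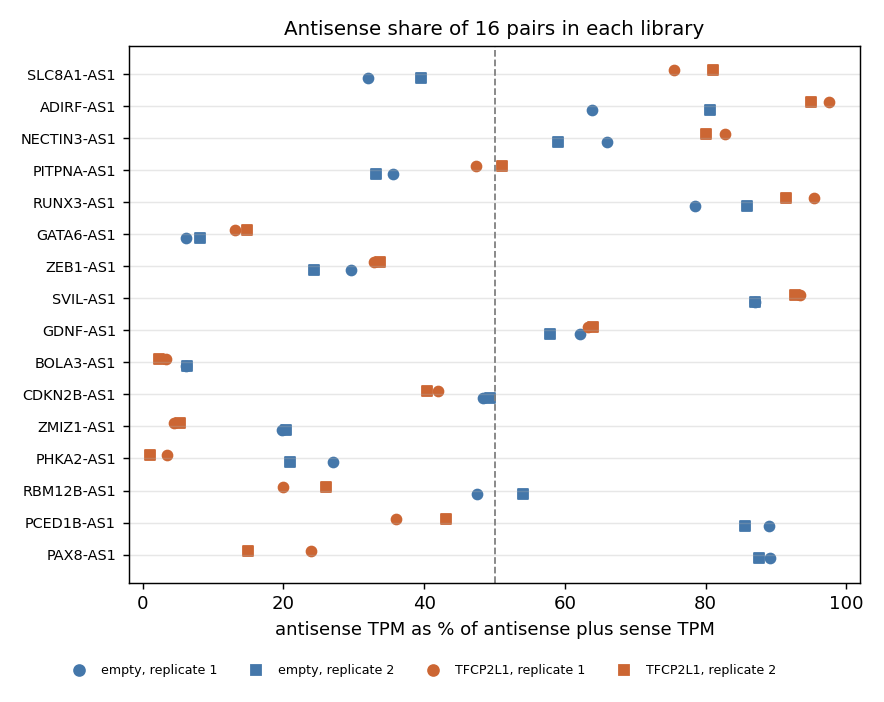
Antisense TPM as a percentage of antisense plus sense TPM, 1 symbol per library, for selected pairs, with a dashed line where both genes have equal TPM. The PAX8-AS1 and PCED1B-AS1 pairs cross the line leftward from 85.6% or more in the empty libraries, and the SLC8A1-AS1 pair crosses it rightward to 75.5% or more with TFCP2L1.

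Several of the most abundant antisense genes had groups that overlapped. FGD5-AS1 was at 41.5 and 40.9 TPM in the empty libraries and at 51.5 and 47.0 TPM in the overexpressing libraries (log2 fold change 0.29, edgeR adjusted p = 0.0013), beside an FGD5 that never passed 0.03 TPM. MAGI2-AS3 was at 42.8 and 33.0 TPM against 42.4 and 35.1 TPM, overlapping (edgeR adjusted p = 0.052; 5.12e-05 without overexpression replicate 2). PSMA3-AS1 was at 32.7 and 29.3 TPM against 32.1 and 35.1 TPM (edgeR adjusted p = 0.24), and TRIM52-AS1 at 32.4 and 29.1 TPM against 33.0 and 31.6 TPM (edgeR adjusted p = 0.14). For both, groups overlapped. IGFL2-AS1 was at 41.8 and 38.4 TPM against 26.4 and 26.5 TPM (log2 fold change -0.37, edgeR adjusted p = 0.021), a call that ended without empty replicate 1 (adjusted p = 0.17) and without overexpression replicate 1 (0.13).

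For some antisense genes counts and TPM did not tell the same story. SVIL-AS1, the most abundant of the set and antisense to the actin-binding supervillin gene SVIL, was at 94.8 and 100.2 TPM in the empty libraries and at 179 and 135 TPM in the overexpressing libraries, so TPM was higher with TFCP2L1. Its counts were 1291 and 1054 against 1021 and 1114, and CPM fell from 55.6 ± 0.20 to 42.7 ± 0.22 (mean ± SD, n = 2; log2 fold change -0.38, edgeR adjusted p = 0.0008). The transcript length implied by the 2 deposited values was 994 and 939 bases in the empty and 413 and 512 bases in the overexpressing libraries. OIP5-AS1, known as Cyrano, was at 15.7 and 17.96 TPM against 13.6 and 17.97 TPM, overlapping, while its CPM rose from 16.01 ± 0.44 to 24.6 ± 0.40 (n = 2; log2 fold change 0.62, edgeR adjusted p = 0.0001) and the implied length rose from 1765 and 1478 to 3157 and 2199 bases. In ADIRF-AS1 the implied length was 3686 and 3246 bases and then 2165 and 2228 bases, with both scales higher. In all, 24 tested members had a TPM ratio and a count fold change of opposite sign. SVIL-AS1, PHKA2-AS1 and TMEM9B-AS1 were among those where the 2 differed by at least 1 on the log2 scale. OIP5-AS1, SVIL-AS1 and ZEB1-AS1 are the 3 called genes whose TPM went the other way.

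**Figure D4:**
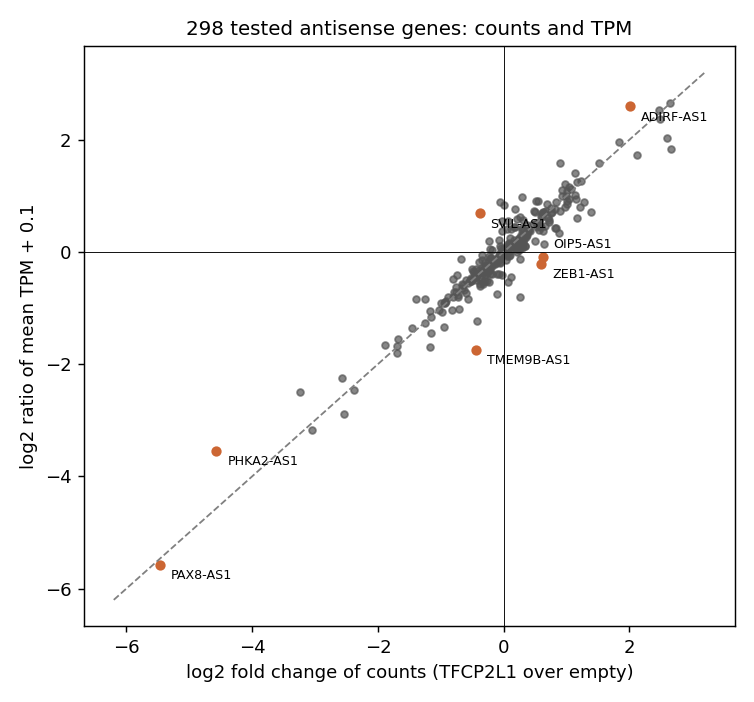
Log2 ratio of mean TPM (each mean plus 0.1) against the log2 fold change of counts for 298 tested antisense genes, with a dashed line where both are equal. PAX8-AS1 lies on the line, and SVIL-AS1 lies above it with counts lower by 0.38 and a higher TPM.

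Antisense genes were also grouped by the known roles of their partners, with the values known, so the counts below are description only. Next to cell cycle and DNA maintenance genes, 5 of 13 tested and present in both groups rose and 8 did not pass the test. Of the 16 partners tested 8 rose and 3 fell. TMPO-AS1, CDKN2B-AS1 and OIP5-AS1 held in each fit without 1 library. POT1-AS1, next to a telomere protein gene, lost its call without empty replicate 1 (edgeR adjusted p = 0.34), overexpression replicate 1 (0.12) or replicate 2 (0.060), and MCPH1-AS1 without empty replicate 2 (0.16) or overexpression replicate 2 (0.22). Under DESeq2 POT1-AS1 and MCPH1-AS1 also lost their calls (DESeq2 adjusted p = 0.18 and 0.16). The TPM of OIP5-AS1 overlapped between the groups, and its mean went the other way from its counts. SPAG5-AS1, beside the spindle protein gene SPAG5, reached TPM 1 with TFCP2L1 only, at 0.92 and 0.91 TPM against 2.28 and 2.19 TPM. Next to transcription factor genes 4 of 25 rose and 4 fell, and of 26 partners 8 rose and 9 fell. Next to surface, matrix and secreted protein genes 3 of 25 rose and 5 fell, and of 25 partners 7 rose and 8 fell. Next to zinc-finger genes 1 of 18 rose and 3 fell, and of 20 partners 3 rose and 3 fell. The shares of antisense genes and of partners called in these groups stand beside 23.5% higher and 23.9% lower over all genes. These role groups and the examples in them were put together with the values known.

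Genes that process or destroy such RNAs changed in both directions. Of 45 tested genes of nuclear RNA turnover, transcription termination and double-stranded RNA handling 15 rose, 11 fell and 19 did not pass the test, 57.8% called against 47.5% of all genes, with a median log2 fold change of -0.03. ADARB1, an adenosine deaminase that edits double-stranded RNA, went from 17.8 ± 1.48 to 6.02 ± 0.74 CPM (mean ± SD, n = 2) and fell by 1.57 on the log2 scale (edgeR adjusted p = 3.88e-07). DIS3, a catalytic subunit of the RNA exosome, fell from 107 ± 5.32 to 67.7 ± 3.72 CPM (log2 fold change -0.67, edgeR adjusted p = 2.84e-06). Of the microprocessor that crops miRNA precursors, DGCR8 fell by 0.51 (edgeR adjusted p = 1.05e-05) and its nuclease partner DROSHA rose by 0.37 (edgeR adjusted p = 0.0001). RNASEH1, which cuts RNA in RNA-DNA hybrids and is also the partner of an antisense gene, fell by 0.35 (edgeR adjusted p = 0.0047; 0.099 without empty replicate 2).

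RCC2-AS1 followed single libraries and not the groups, and TRDN-AS1 had too few counts to test. The groups of VIM-AS1 stood apart on an unstable call. RCC2-AS1 was at 0.72 and 10.54 TPM in the empty libraries and at 0 and 11.9 TPM in the overexpressing libraries, and TRDN-AS1 at 1.55 and 0 against 2.28 and 0 TPM. In RCC2-AS1 the first and the second library of each group stood apart, which the labels do not explain. The values of TRDN-AS1 lie near the floor of counting, and no pattern across libraries is read from them. VIM-AS1, antisense to the vimentin gene of the mesenchymal cytoskeleton, was at 3.90 and 4.15 TPM against 1.84 and 2.67 TPM (log2 fold change -0.80, edgeR adjusted p = 0.027). Its call ended without empty replicate 1 (adjusted p = 0.084), empty replicate 2 (0.075) or overexpression replicate 1 (0.18). VIM was higher by 0.27 (edgeR adjusted p = 0.0014), which ended without empty replicate 1 (adjusted p = 0.055).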

How the data were processed

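RNA-seq of 4 Hs578T libraries, 2 per group, was read from a table of the whole series. The authors deposited estimated counts per gene, not normalized, and TPM per library, per the file headers. The authors' deposited fold change (a ratio), log2 fold change, p-value and adjusted p-value, overexpression over control, made with DESeq2 as the deposited table's name says, were used only where named; that table writes FLAG for the control. Aligner, counter, strand setting and annotation: not given in the sources used here. Per the submitters' processing notes Bowtie 0.12.2 and mm9 were used, but mm9 is a mouse build and the gene IDs are human. The labels name no batch.

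The quasi-likelihood test of edgeR 4.0.16 (R 4.3.3; robust glmQLFit; TMM factors 0.995 to 1.005; filterByExpr with a minimum count of 10) was run on the rounded estimated counts, with Benjamini-Hochberg adjustment over 16544 genes. The script was tested on simulated data. Standard errors are the log2 fold change over the square root of F, and CPM use TMM-scaled library sizes. The common biological coefficient of variation was 0.059. Count ratios have exact 95% intervals for counting error only, and the floor is 3 counts over a group. No exact permutation p is given, since the 3 splits of 2 against 2 allow none below 0.33. Implied length is count over TPM, scaled to each library. Positions are from GENCODE 29 by gene ID, which need not be the authors' annotation, and promoter windows from RefSeq (GRCh38.p14) by symbol.

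Antisense genes were named by rule: the 15 largest log2 fold changes at a mean of 2 TPM or more in the higher group, the 10 highest mean TPM, every gene whose partner was called with a log2 fold change of at least 1, and the 6 strongest opposite pairs. The 4 RNA turnover genes with the smallest p were added, and other genes named were chosen after their values were seen. The members, lists and role groups were chosen with earlier results of these data known. Alternatives were 2 other scalings, no filter, 1 CPM in 2 libraries, DESeq2 1.42.0, limma-voom (limma 3.58.1), an adjusted p of 0.01, other TPM thresholds, TPM in place of counts, pairs without shared exons and leaving out each library. The correlation without the PAX8-AS1 pair, and over pairs with 100 or more counts in each gene, was added after seeing the data. A few of the genes concerned are not reported here.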

Additional observations from a re-analysis of the deposited data

How the results depend on the processing

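The numbers of antisense genes called, 37 higher and 39 lower, came to 20 and 18 under DESeq2 and to 19 and 19 at an adjusted p under 0.01. The 26 pairs called in the same direction came to 15 and 14 under these 2 settings, and the 16 called in opposite directions to 7 and 6. Leaving out 1 library gave 26 to 34 genes higher, 27 to 31 lower, 70 to 94 partners higher, 50 to 79 lower, 15 to 24 pairs in the same and 6 to 14 in opposite directions. The lowest were without empty replicate 1 for pairs in the same direction (15) and without empty replicate 2 for opposite pairs (6). Of the RNA turnover genes, 9 to 14 were higher and 8 to 14 lower without 1 library, with 9 higher without empty replicate 1, and 9 were higher at an adjusted p under 0.01. The TPM threshold of 2 kept 220 antisense genes and 53 partners called higher, as fewer genes are counted. The correlation over all 266 pairs was 0.39, and 0.26 over the 240 whose antisense gene reached TPM 1 in both groups. The other antisense genes had to differ and are kept in the correlations that follow, except over genes at TPM 1 in all 4 libraries. The 0.39 came to 0.26 to 0.37 without 1 library, lowest without overexpression replicate 2. Over genes at TPM 1 in all 4 libraries it was 0.23. Over pairs whose exons do not overlap, where reads are less likely to be shared, it was 0.21. It was 0.40 without the PAX8-AS1 pair and 0.29 over the 180 pairs with 100 or more counts in each gene. Of 1318 values of named genes under alternatives 1205 kept their side of the threshold, 107 lost the call, 6 gained one and no called gene changed sign; 36 of 122 named genes changed their call on leaving out 1 library, and the cause was not tested. The authors' deposited table calls 15 of the 291 antisense genes higher and 11 lower at an adjusted p under 0.05, and all 26 are also called here in the same direction. No paired analysis was possible because the sample titles carry numbers that the groups do not share. Depth limits the set, whose median gene had 2.55 CPM, and 26 of 324 could not be tested.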
